A study of Mus musculus with 6 samples.

Results

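The noncoding RNAs described here are the transcripts that the array names by a noncoding RefSeq accession and that were detected on every array of the study. A probe was kept when its accession carries the prefix RefSeq gives to noncoding RNAs, when the scanner software marked it as well above background on all 6 arrays (mean of the mark over a probe's spots above 0.5), and when its gene belongs to no other gene family of the series. The rule kept 461 of the 1216 probes with such an accession, out of 39429 gene probes on the array. They comprised 308 long noncoding RNA probes (2 of them antisense RNAs), 100 probes of transcribed pseudogenes, 7 of small structured RNAs, 7 of noncoding transcripts of protein-coding genes and 39 whose accession had no match in the RefSeq table. The 422 matched probes stand for 382 genes on 21 chromosomes, and 32 genes had more than 1 probe. With the 30 unmatched accessions, the members were 412 genes. The members were selected on the scanner's background marks of the same 6 arrays, so their detection is not a result, and the noncoding probes outside the rule are not described by the counts below.

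The cells were immortalised mouse kidney podocytes carrying a temperature-sensitive SV40 T antigen, grown at 33 °C and then differentiated for 10 days at 37 °C. All of them carried a lentiviral short hairpin RNA from the pGIPZ vector. Total RNA from 2 cultures of shTug1 clone 2, 2 of shTug1 clone 3 (the hairpin of both targets Tug1, a long noncoding RNA) and 2 of shControl (a scrambled hairpin) was hybridised in 1 colour. The labels call each pair biological replicates and each shTug1 line an independent clone, so each hairpin line rests on a single clone, and the design asks which transcripts differ once Tug1 is targeted. Both shControl arrays share 1 scan date in the scanner files, and the 4 arrays labelled shTug1 share another. The labels name no slide. Hairpin and scan date therefore cannot be told apart wherever shControl is compared, whereas the clones share a scan date.

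Long noncoding RNAs are transcripts without a long open reading frame, and many act in the nucleus as scaffolds for proteins or by being transcribed near other genes. A host transcript is a noncoding RNA whose introns or exons release a smaller RNA, such as a small nucleolar RNA (snoRNA), which guides chemical modification of ribosomal RNA, or a microRNA, which represses messenger RNAs that pair with its seed. Transcribed pseudogenes are copies of protein-coding genes that have lost the reading frame. Their sequence is often close to that of the parent messenger RNA, and a hybridised probe need not tell the 2 apart.

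The sequences shown first are those of the microRNAs inside detected host transcripts, because the array measured the hosts and not the microRNAs. By RefSeq coordinates (GRCm38.p6, same strand), 17 mature microRNAs were found inside 3 member genes. The search did not cover all 382 genes, since some, such as Snhg6, had no strand recorded and could not match. Absence of microRNAs from the other members is therefore not shown. Dleu2, on chr14:61602836-61682373, holds the miR-15a and miR-16-1 hairpins. D7Ertd143e, on chr7:3218784-3221015, holds hairpins of the microRNA cluster known from mouse embryonic stem cells, and Snhg10, on chr12:105030617-105032279, holds miR-3069. The mature forms that share a seed follow, with bases 2 to 8 in capitals.
mmu-miR-15a-5p: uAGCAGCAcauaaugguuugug
mmu-miR-16-5p: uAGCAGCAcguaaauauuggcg
mmu-miR-291a-3p: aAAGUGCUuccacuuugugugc
mmu-miR-294-3p: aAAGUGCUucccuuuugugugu
mmu-miR-295-3p: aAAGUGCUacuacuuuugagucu
mmu-miR-291a-5p: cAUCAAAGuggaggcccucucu
mmu-miR-291b-5p: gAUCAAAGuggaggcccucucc
mmu-miR-292a-5p: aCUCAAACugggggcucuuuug
mmu-miR-293-5p: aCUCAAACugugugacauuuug
The Dleu2 pair shares 1 seed, the 3 cluster members from the 3′ arm share another, and 4 of the cluster's 5′ arms fall into 2 pairs with a seed each. The other mature forms each have a seed of their own, such as mmu-miR-291b-3p of the same cluster.
mmu-miR-291b-3p: aAAGUGCAuccauuuuguuugu

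The promoter windows of 4 members, from 250 bases before to 50 bases after the annotated start, are shown for the targeted gene, for the 2 long noncoding RNAs of the fixed lists with the largest falls and for Fendrr, 1 of the 10 largest rises. Capitals mark matches, on either strand, to 4 motifs searched as exact letters: the TATA box as TATAAA, the CCAAT box by its name's letters, the GC box as GGGCGG and the E-box as CACGTG.
Tug1 promoter, chr11:3648765-3649064, minus strand: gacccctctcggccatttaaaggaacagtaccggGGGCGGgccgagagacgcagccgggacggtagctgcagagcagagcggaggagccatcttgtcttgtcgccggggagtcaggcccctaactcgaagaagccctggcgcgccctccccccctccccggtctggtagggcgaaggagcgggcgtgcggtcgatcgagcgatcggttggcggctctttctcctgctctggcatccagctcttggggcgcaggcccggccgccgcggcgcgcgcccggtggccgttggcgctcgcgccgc
Malat1 promoter, chr19:5802623-5802922, minus strand: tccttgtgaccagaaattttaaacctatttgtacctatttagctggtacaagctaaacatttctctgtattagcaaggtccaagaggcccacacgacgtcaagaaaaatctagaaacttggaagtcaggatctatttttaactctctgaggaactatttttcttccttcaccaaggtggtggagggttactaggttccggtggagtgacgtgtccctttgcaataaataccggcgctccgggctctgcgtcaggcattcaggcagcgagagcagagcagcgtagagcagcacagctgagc
Snhg18 promoter, chr15:32244613-32244912, minus strand: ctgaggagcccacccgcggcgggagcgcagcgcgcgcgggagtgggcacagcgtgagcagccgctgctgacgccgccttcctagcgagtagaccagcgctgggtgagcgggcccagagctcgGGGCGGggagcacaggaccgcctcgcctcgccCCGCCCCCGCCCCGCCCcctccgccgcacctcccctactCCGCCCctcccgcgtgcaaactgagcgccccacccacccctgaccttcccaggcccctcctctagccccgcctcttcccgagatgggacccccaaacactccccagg
Fendrr promoter, chr8:121083061-121083360, minus strand: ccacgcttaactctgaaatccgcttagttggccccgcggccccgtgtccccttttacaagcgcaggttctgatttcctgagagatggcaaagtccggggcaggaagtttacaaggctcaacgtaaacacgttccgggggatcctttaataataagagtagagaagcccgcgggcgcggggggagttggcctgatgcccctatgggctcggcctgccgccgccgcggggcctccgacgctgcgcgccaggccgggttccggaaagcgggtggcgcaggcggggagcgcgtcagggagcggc
Tug1 held 1 GC box match and Snhg18 held 5, and the capitals of neighbouring matches run together, since some overlap. No match to the 4 motifs lay in the Malat1 or the Fendrr window. Among 32851 promoter windows of the same length, 13.6% held the TATA box letters, 37.4% the CCAAT box, 35.7% the GC box and 7.15% the E-box. The G and C content was 71.3% for Tug1, 47% for Malat1, 75.3% for Snhg18 and 64.7% for Fendrr, against a median of 52.7% over those windows.

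Levels are given as log2 of the background-subtracted signal minus log2 of the 75th percentile of the same array, so 0 is the level of a probe at that percentile and 1 unit is a doubling. That percentile was 1055 and 949 signal units on the clone 2 arrays, 569 and 832 on the clone 3 arrays, and 324 and 363 on the shControl arrays, with 58.2% to 68.0% of probes above background and no saturated spot. The members' median level was -2.25 and -2.28 on the clone 2 arrays, -1.98 and -2.12 on the clone 3 arrays, and -1.34 and -1.88 on the shControl arrays. Replicates agreed less well in shControl: the median SD of the members was 0.15 in clone 2, 0.14 in clone 3 and 0.49 in shControl (n = 2 each). Of 18 podocyte markers, 15 were above background on all 6 arrays, as were 6 of 10 mesangial and stromal (Des on none), 5 of 8 endothelial (Tek and Emcn on none), 5 of 8 tubular (Slc12a1 on none), 1 of 4 parietal (Krt8 on none) and 4 of 5 immune markers on the array. The summed linear level of the podocyte markers was 132 to 137 in clone 2, 145 to 164 in clone 3 and 247 to 331 in shControl, and that of the tubular markers was 59.9 to 62.9 in clone 2, 81.9 to 117 in clone 3 and 248 to 407 in shControl. The summed levels were 217 to 231, 241 to 323 and 555 to 567 for the mesangial and stromal list in clone 2, clone 3 and shControl, and 2.78 to 3.35, 3.06 to 3.50 and 6.04 to 6.54 for the endothelial list. For the parietal list they were 6.79 to 8.27, 3.71 to 7.04 and 9.38 to 12.5, and for the immune list 2.50 to 2.60, 3.01 to 3.82 and 7.73 to 12.9. The summed level of all 6 lists was thus lower on the arrays labelled shTug1, and its part in the results below was not tested. A linear sum rests mostly on its brightest probes, such as Acta2 in the mesangial and stromal list and Cdh16 in the tubular list. Bright probes in general were lower under this scaling. Over all 5858 probes detected on all 6 arrays with a mean level above 2, the median difference, mean of the clones minus shControl, was -0.97. It was -0.12 after quantile normalization, which was not applied to the sums. Single markers did not all follow the sums: Itga3 was higher on all 4 arrays labelled shTug1 than on both shControl arrays.

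Tug1, on chr11:3639785-3648814 (minus strand, GRCm38.p6), was the targeted gene, and its member probe was not lower throughout. The 2 arrays labelled clone 2 read -1.86 and -1.88, the pair labelled clone 3 read -3.10 and -3.23, and shControl read -2.88 and -2.49. Clone 2 arrays lay above both shControl arrays and clone 3 arrays below both. Another Tug1 probe, A_51_P119401, no member, was above background on both clone 2 arrays (-2.73 and -2.94) and on clone 3 replicate 2 (-3.58), and on neither clone 3 replicate 1 nor shControl. It therefore does not show clone 3 lower, and a probe named A_55_P2123716 was above background on no array. Neither difference passed the test: 0.81 ± 0.34 (SE) for clone 2 (limma, adjusted p = 0.0823) and -0.48 for clone 3 (adjusted p = 0.329). The clone 2 values go against the label, so the arrays are called by their labels, and no direction below is read as the result of a lower Tug1 level.

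Most detected noncoding RNAs had lower levels on the arrays labelled shTug1, but so did most other probes. Against shControl, the mean of the clones was higher for 26 and lower for 144 of the 461 members at an adjusted p under 0.05 (limma with Benjamini-Hochberg adjustment over all 25541 probes tested). Among all probes tested, 39.4% passed, 11.8% as higher and 27.6% as lower; among the 19795 probes detected on all 6 arrays, 39.2% passed, 8.26% as higher and 31% as lower. The members' share, 36.9%, was near both. The 4 shTug1-labelled arrays lay above both controls for 29 members and below both for 244, beside 14% and 40.2% of all probes tested. Over the 19795 probes detected on all 6 arrays, these counts were 2247 and 9064. The members' median log2 difference was -0.72, against -0.57 over all probes tested and -0.65 over those detected on all 6 arrays. In a bulk RNA sample, fewer cells of a type and less RNA per cell cannot be told apart. After quantile normalization, which gives all arrays the same distribution, 27 members were higher and 79 lower. These shares, 5.86% and 17.1%, stood beside 12.7% and 13.9% of all probes, and 9.97% and 15.2% of those detected on all 6 arrays. The medians were -0.44 for the members, -0.21 for all probes and -0.27 for those detected on all 6 arrays. With single arrays left out, the count of all probes called changed as well as the members' count. The count moved with single arrays: it was 83 without shControl replicate 1, 314 without shControl replicate 2, 96 and 94 without clone 2 replicates 1 and 2, 26 without clone 3 replicate 1 and 3 without clone 3 replicate 2.

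**Figure D1:**
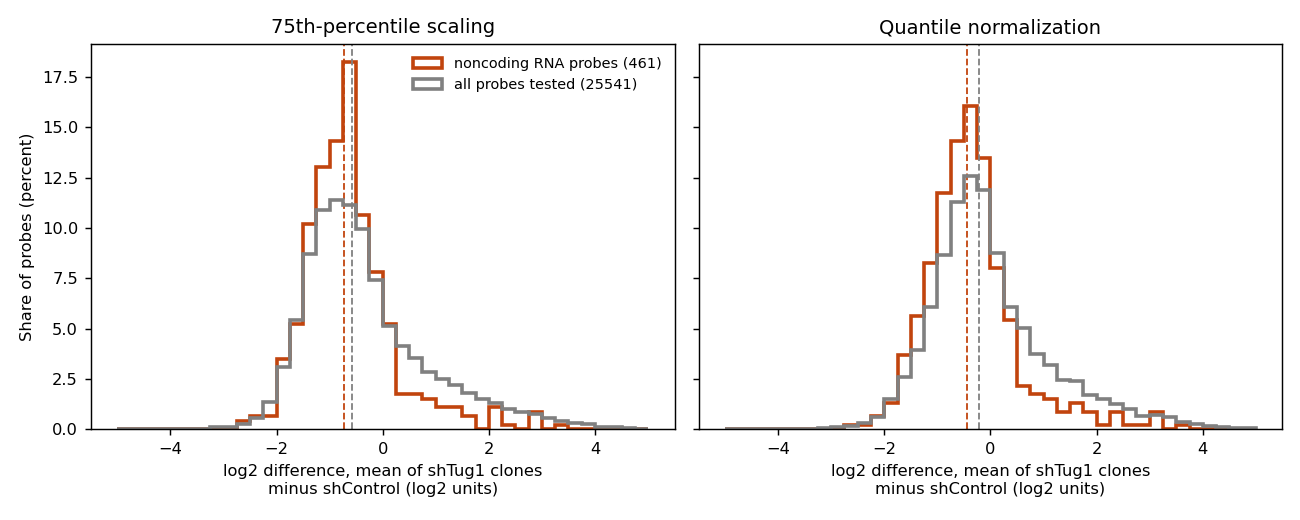
Share of probes (y axis, percent) by log2 difference between the mean of the shTug1 clones and shControl (x axis, bins of 0.25), for the 461 noncoding RNA probes and all 25541 probes tested, with dashed lines at the medians. Under the 75th-percentile scaling both distributions sit below 0 (medians -0.72 and -0.57), and after quantile normalization both move towards 0 (medians -0.44 and -0.21).

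Long noncoding RNAs and transcribed pseudogenes had a different balance of calls. Of 308 long noncoding RNA probes, 6 were higher and 105 lower, with a median difference of -0.78. These are 1.95% and 34.1%, beside 8.26% and 31% of all probes detected on all 6 arrays. Their share called lower was thus near that of all detected probes, and their share called higher was smaller. This comparison took no account of level. The share called higher among all detected probes was 2.51% below a mean level of -2, 15.1% from -2 to 2 and 4.98% above 2. Among all members these shares were 2.15%, 8.23% and 11.4%, and 233 members lay below -2. Long noncoding RNA probes were not split by level, so whether level accounts for their smaller share was not tested. Of 100 pseudogene probes, 18 were higher and 24 lower, with a median of -0.48. Quantile normalization left 8 higher and 68 lower long noncoding RNA probes (2.60% and 22.1%, beside 9.97% and 15.2% of all probes detected on all 6 arrays). It left 18 higher and 4 lower pseudogene probes, so most of the pseudogene falls depended on the scaling and the number of rises did not. The difference between the classes itself was not tested. Without clone 3 replicate 2, the long noncoding RNA counts were 0 higher and 1 lower and the pseudogene counts 0 and 1; without clone 3 replicate 1 they were 1 and 15 for long noncoding RNAs and 5 and 2 for pseudogenes. Leaving out shControl replicate 1 gave 5 and 46 for long noncoding RNAs and 11 and 13 for pseudogenes, and leaving out shControl replicate 2 gave 7 and 203, and 21 and 44. Without clone 2 replicate 1 the counts were 4 and 56, and 12 and 13, and without clone 2 replicate 2 they were 3 and 54, and 13 and 11.

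**Figure D2:**
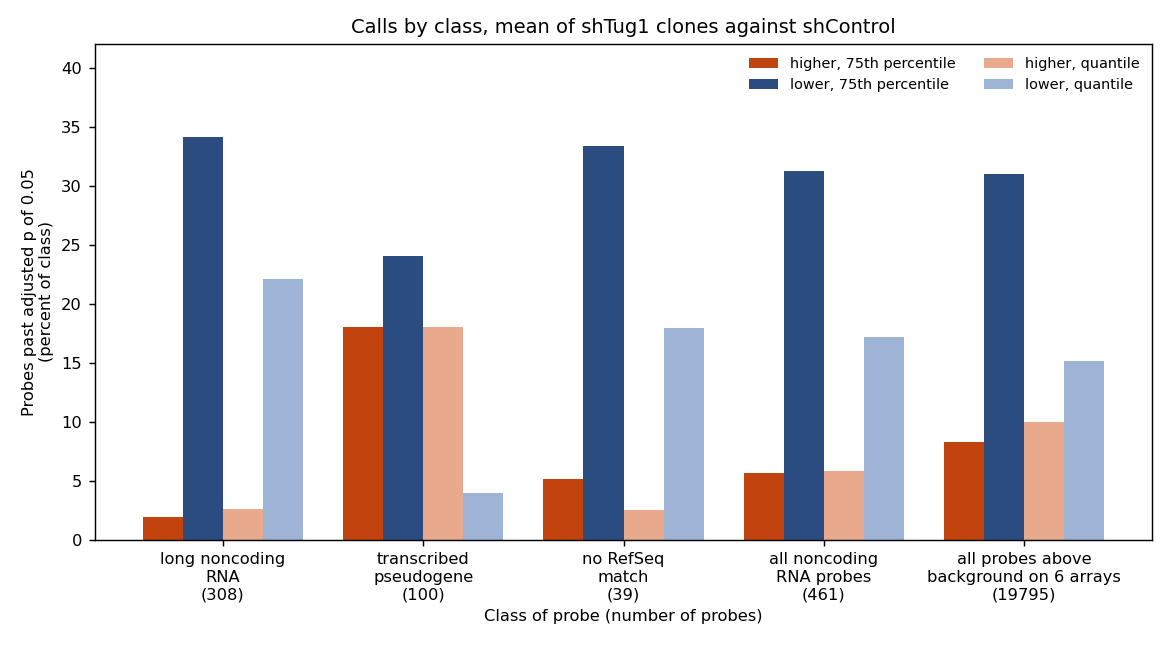
Percent of each class of probe (y axis) that was higher or lower in the mean of the shTug1 clones than in shControl at an adjusted p under 0.05, under the 75th-percentile scaling (dark) and quantile normalization (light); the number of probes is below each class. Pseudogene probes had 18% higher under both scalings, and long noncoding RNA probes had 1.95% and 2.60% higher.

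Calls of bright members also followed the scaling. Of the 70 members with a mean level above 2, 32 were lower and 8 higher under the 75th-percentile scaling, and 2 were lower and 9 higher after quantile normalization. As shares, 45.7% were lower and 11.4% higher under the first scaling, beside 47.5% and 4.98% of all 5858 detected probes above that level. After quantile normalization 2.86% were lower and 12.9% higher, beside 9.76% and 10.5%. Of the 233 members below -2, 65 were lower under the first scaling and 39 after quantile normalization. The falls of dim members thus kept a larger part of their number under the second scaling than those of bright members. The same held for all detected probes, with 1382 and 904 lower below -2 and 2780 and 572 lower above 2. Of the 39 probes without a RefSeq match, 2 were higher and 13 lower. These shares, 5.13% and 33.3%, were near the 8.26% and 31% of all probes detected on all 6 arrays. The largest fall among the unmatched probes, of probe A_66_P112862, had -2.20 and -1.78 in clone 2, -2.09 and -1.13 in clone 3, and 1.02 and 0.63 in shControl. Its difference was -2.62 ± 0.37 (SE, adjusted p = 0.00868), and it was 1 of the 3 members that passed without clone 3 replicate 2. The larger of the 2 rises, of probe A_55_P2000658, was 2.77 ± 0.59 (SE, adjusted p = 0.0171), with shControl arrays at -1.21 and 1.08. Among the small structured RNAs, 1 of 7 passed: Rn4.5s, a small RNA that the RefSeq table types as ribosomal, differed by -1.32 (adjusted p = 0.0190), and by -0.44 after quantile normalization (adjusted p = 0.189). The other 6, including the minor spliceosome RNA Rnu12 and the snoRNA Snora47, did not pass. Among noncoding transcripts of protein-coding genes, 1 of 7 passed, that of Zfp672 (-1.06, adjusted p = 0.0470), and it too was lost after quantile normalization (-0.80, adjusted p = 0.0640).

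Malat1, an abundant nuclear RNA of nuclear speckles on chr19:5795690-5802672 (minus strand), kept its fall with every array left out and under every setting tried. Its level was -0.33 and -0.47 on the clone 2 arrays, -0.37 and -0.31 on the clone 3 arrays, and 1.87 and 1.76 on the shControl arrays. All 4 arrays labelled shTug1 lay more than 2 log2 units below both controls, and the replicates of each group lay close together. The mean difference was -2.19 ± 0.28 (SE), a 4.56-fold lower level (limma, adjusted p = 0.00716), with -2.22 in clone 2 (adjusted p = 0.00757) and -2.16 in clone 3 (adjusted p = 0.0259). Its mean difference was between -2.25 and -2.13 with any 1 array left out, and it passed each time, as it did under all 8 other settings (-2.19 to -1.80). Malat1 and Neat1 are neighbours on chromosome 19, and Neat1, the scaffold of paraspeckles, had -0.35 and -0.14 in clone 2, 0.35 and 0.29 in clone 3, and 0.84 and 0.46 in shControl. Its difference of -0.61 did not pass (adjusted p = 0.126).

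The nuclear and regulatory long noncoding RNAs of the list had a median difference of -0.70, beside -0.57 over all probes. Of their 8 probes, 0 were higher and 3 lower (37.5%), beside 8.26% and 31% of all probes detected on all 6 arrays. The 3 were Malat1, 1 of 2 Pvt1 probes and Dancr, and all 3 also passed after quantile normalization. Pvt1, the neighbour of the Myc oncogene on chr15:62037986-62260215, gave 0.96 and 0.91 in clone 2, 1.20 and 1.31 in clone 3, and 2.99 and 2.04 in shControl with 1 probe (-1.42 ± 0.35 SE, adjusted p = 0.0220). Its other probe differed by -0.33 (adjusted p = 0.409), so the Pvt1 probes disagree on the size and on the call. Dancr, an RNA known for restraining differentiation and a host of Snora26, had 0.49 and 0.43 in clone 2, 0.94 and 0.87 in clone 3, and 2.17 and 1.64 in shControl (-1.22 ± 0.30 SE, adjusted p = 0.0221). Norad, an RNA that binds Pumilio proteins, had 2 member probes, with differences of -0.53 and -0.80 that did not pass (adjusted p = 0.186 and 0.0925). Of its other 2 probes, each detected on 5 arrays, A_66_P106606 ran the other way, with 1.72 and 2.04 in clone 2, -0.86 and 0.04 in clone 3, and -0.99 on the 1 shControl array where it was detected. Without clone 3 replicate 2 only Malat1 of this list passed, and the same held without clone 3 replicate 1; without shControl replicate 2 the list had 7 lower probes. Of 9 listed genes with a probe, Xist (above background on 4 arrays), Firre and Kcnq1ot1 were not members.

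**Figure D3:**
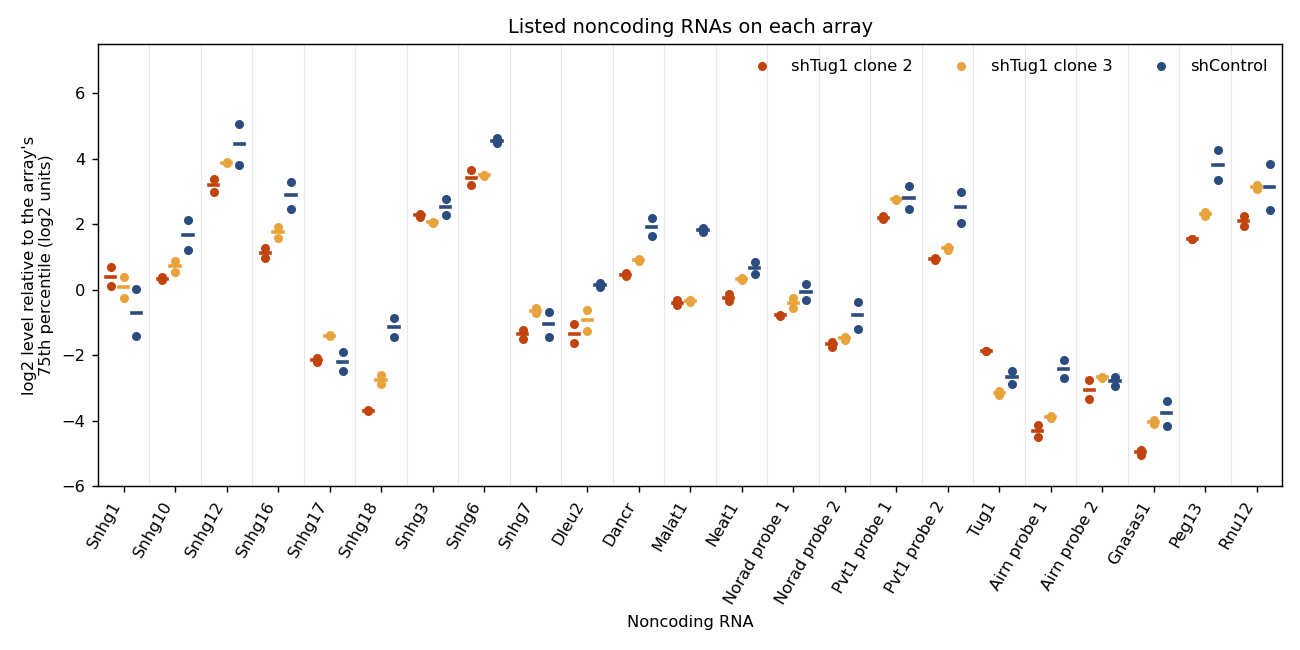
Level of each listed noncoding RNA (y axis, log2 relative to the array's 75th percentile) on the 2 shTug1 clone 2, 2 shTug1 clone 3 and 2 shControl arrays; points are arrays and bars are group means. Malat1, Snhg18 and Peg13 show all 4 arrays labelled shTug1 below both shControl arrays, and Tug1 shows clone 2 above and clone 3 below.

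Of the 9 detected members of the snoRNA host list, 0 were higher and 4 lower, with a median of -0.90 (all probes: -0.57). Those 4 make 44.4% of the list, beside 31% lower and 8.26% higher among all probes detected on all 6 arrays. Snhg18, the host of Snord123 on chr15:32240568-32244662, had the largest difference: -3.70 and -3.68 in clone 2, -2.62 and -2.89 in clone 3, and -0.86 and -1.43 in shControl. The groups do not overlap, and the mean difference was -2.08 ± 0.31 (SE, adjusted p = 0.00951); it passed in each clone and after quantile normalization (-1.98). Snhg16, which holds Snord1a, Snord1b and Snord1c, had 1.27 and 0.97 in clone 2, 1.91 and 1.58 in clone 3, and 3.28 and 2.47 in shControl (-1.44 ± 0.35 SE, adjusted p = 0.0209, and -0.96 after quantile normalization). Snhg6, host of Snord87, had 3.64 and 3.18 in clone 2, 3.51 and 3.47 in clone 3, and 4.62 and 4.46 in shControl (-1.09, adjusted p = 0.0278). Snhg10 differed by -1.14 (adjusted p = 0.0386). Both of those calls were lost after quantile normalization, at -0.32 (adjusted p = 0.36) for Snhg6 and -0.86 (adjusted p = 0.055) for Snhg10. The list had 0 lower hosts without clone 3 replicate 2, 1 without clone 3 replicate 1 or without shControl replicate 1, 2 without either clone 2 array, and 5 lower and 1 higher without shControl replicate 2.

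Not all hosts moved one way. Snhg1, which spans 8 annotated snoRNAs, was numerically higher: 0.70 and 0.10 in clone 2, -0.26 and 0.40 in clone 3, and -1.41 and 0.01 in shControl. Its groups overlap and its difference of 0.94 ± 0.47 (SE) did not pass (adjusted p = 0.137). Snhg17 (0.42), Snhg7 (0.06), Snhg3 (-0.36) and Snhg12 (-0.90) did not pass either. By coordinates alone, whatever the strand of the small RNA, 15 member genes contain 33 small RNAs annotated as snoRNAs or guide RNAs. Scarna13, the only small RNA of these types in Snhg10, is typed as a guide RNA. Of the 15 probes of these genes, 9 were lower and 0 higher, beside 31% and 8.26% of all probes detected on all 6 arrays. After quantile normalization 4 of the 15 were lower and 0 higher, beside 15.2% and 9.97%. This set was drawn up from RefSeq positions after the values were known. Among the hosts outside the list, 2410006H16Rik, with Snord49a, Snord49b and Snord65, had 4.22 and 3.97 in clone 2, 4.91 and 4.44 in clone 3, and 5.79 and 5.11 in shControl. Its difference of -1.06 (adjusted p = 0.0414) became -0.23 after quantile normalization (adjusted p = 0.44). The snoRNAs themselves are not measured by these probes.

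Of 12 listed snoRNP proteins and assembly factors, 2 were higher and 7 lower, beside 11.8% and 27.6% of all probes tested. The median was -1.07 over the list and -0.57 over all probes. Each gene was taken by its tested probe with the highest mean level. Nop56, Nop58, Nhp2 and Nop10, all counted as lower, lay above 2 on every array. Of all 5858 detected probes with a mean level above 2, 47.5% were lower and 4.98% higher. Those shares were 9.76% and 10.5% after quantile normalization, under which the list was not counted. Nop56, a core protein of box C/D particles, differed by -1.38 and Naf1, an assembly factor of box H/ACA particles, by -1.47 (adjusted p = 0.03 and 0.018). Dkc1, the pseudouridine synthase of box H/ACA particles and 1 of the 2 counted as higher, was above background on all 4 arrays labelled shTug1 and on neither shControl array, so no size is given for it.

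Of the microRNA host list, Dleu2 alone was a member, and it fell. Its level was -1.06 and -1.64 in clone 2, -0.61 and -1.25 in clone 3, and 0.20 and 0.09 in shControl, with no overlap. The difference was -1.28 ± 0.34 (SE, adjusted p = 0.0255) and -1.23 after quantile normalization (adjusted p = 0.034). It passed in clone 2 (-1.49, adjusted p = 0.0229) and not in clone 3 (-1.07, adjusted p = 0.103), and the difference between the clones did not pass. The Dleu2 call for the mean of the clones was lost without clone 3 replicate 2. D7Ertd143e, taken up for the microRNAs it contains and not by the rule for named genes, had -3.27 and -2.89 in clone 2, -2.10 and -2.50 in clone 3, and -1.39 and -1.97 in shControl. Its difference was -1.01 (adjusted p = 0.0449), with an adjusted p of 0.051 after quantile normalization. The mature sequences printed above were not measured. Of 14 tested proteins that process or load microRNAs, 1 was higher and 4 lower, shares near the 11.8% and 27.6% of all probes tested. Drosha, the nuclear enzyme that cuts primary microRNA transcripts, differed by -1.40 (adjusted p = 0.029), Tnrc6c, a silencing partner of Argonaute, by -1.64 (adjusted p = 0.016), and Prkra, a partner of Dicer, by 1.50 (adjusted p = 0.013).

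Imprinted long noncoding RNAs, which are transcribed from 1 parental allele, gave 2 lower and 0 higher of 4 probes (median -1.20). Among all probes detected on all 6 arrays, 31% were lower and 8.26% higher. Peg13, on chr15:72805602-72810324, had 1.56 and 1.55 in clone 2, 2.37 and 2.26 in clone 3, and 4.27 and 3.35 in shControl. The difference was -1.87 ± 0.35 (SE, adjusted p = 0.0133), and -1.28 after quantile normalization (adjusted p = 0.019). Airn, which silences the paternal Igf2r copy in mouse, fell with 1 probe (-4.49 and -4.13 in clone 2, -3.91 and -3.85 in clone 3, -2.16 and -2.71 in shControl; -1.66, adjusted p = 0.0137). Its other probe gave -3.34 and -2.78 in clone 2, -2.66 and -2.70 in clone 3, and -2.94 and -2.67 in shControl, with a difference of -0.07 (adjusted p = 0.87). Gnasas1, the antisense RNA of the Gnas locus, did not pass (-0.73, adjusted p = 0.106). Without clone 3 replicate 1 the imprinted list had 1 lower probe, without clone 3 replicate 2 none at an adjusted p under 0.05, and without shControl replicate 2 it had 3. Of the listed X-inactivation RNAs, none was a member.

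Among members with a gene symbol, the 10 largest falls with all 4 arrays labelled shTug1 below both controls were 9 long noncoding RNAs and 1 pseudogene. Gm13807 had the largest, -2.71 ± 0.58 (SE, adjusted p = 0.0168): -4.72 and -5.07 in clone 2, -4.45 and -3.46 in clone 3, and -0.71 and -2.73 in shControl. Its shControl arrays lay 2 log2 units apart, and without shControl replicate 1 the difference was -1.70 and did not pass. 4932412D23Rik had -1.58 and -1.77 in clone 2, -1.24 and -1.58 in clone 3, and 1.27 and 0.35 in shControl (-2.35 ± 0.36 SE, adjusted p = 0.00954). 9930014A18Rik, on the bright side, had 0.01 and -0.05 in clone 2, 0.59 and 0.40 in clone 3, and 2.81 and 2.03 in shControl (-2.18 ± 0.33 SE, adjusted p = 0.00954). A130077B15Rik was alone among these in having a lower mean level in clone 3 than in clone 2: -2.42 and -1.90 in clone 2, -3.03 and -2.66 in clone 3, and -0.61 and -0.60 in shControl (-1.90 ± 0.31 SE, adjusted p = 0.0109). The others were Malat1, Snhg18, AI854703, 4930431P03Rik, E330020D12Rik and A230056J06Rik, with differences of -2.27 to -1.96. All 10 passed after quantile normalization.

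**Figure D4:**
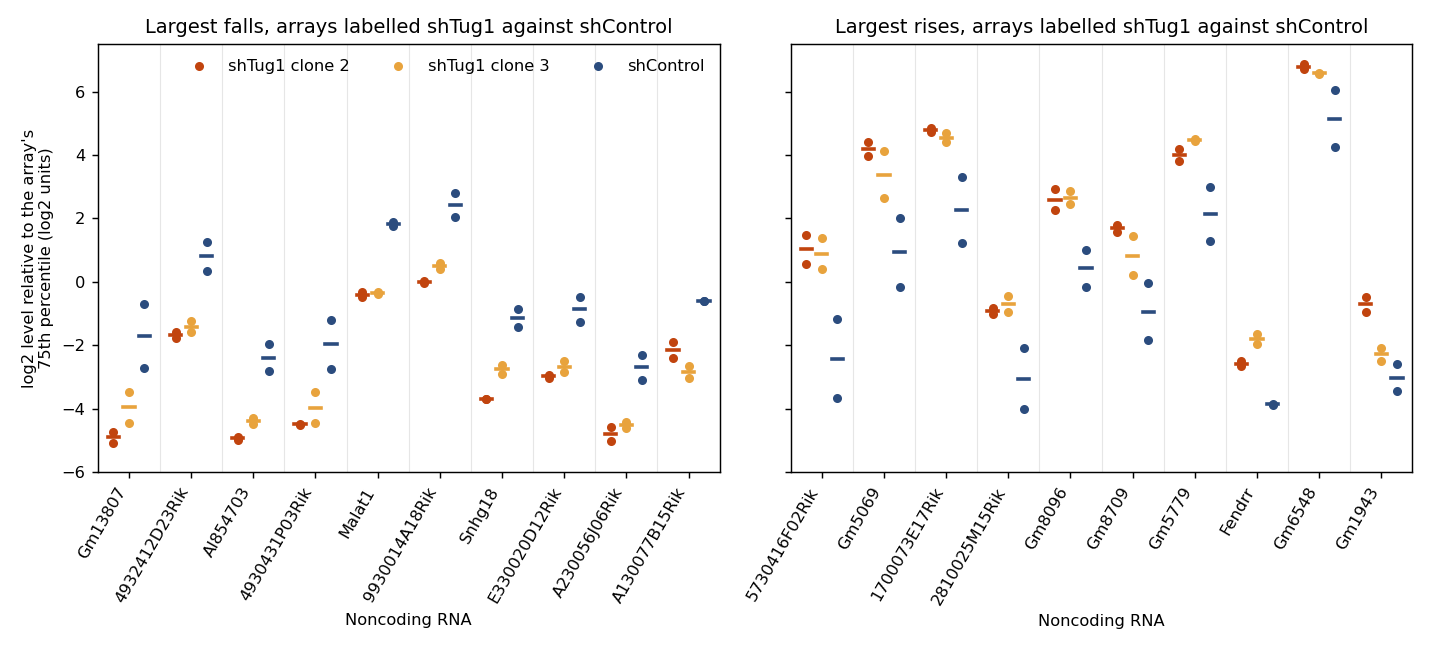
Level (y axis, log2 relative to the array's 75th percentile) of the 10 largest falls (left) and 10 largest rises (right) among the noncoding RNAs with a gene symbol and no overlap between the shTug1-labelled arrays and shControl; points are arrays and bars are group means. The shControl points of most rises lie 1 to 3 log2 units apart, while those of Fendrr lie at -3.89 and -3.85.

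Fendrr had the closest shControl values of the 10 largest rises. This long noncoding RNA lies on chr8:121054882-121083110 (minus strand), beside Foxf1, and is known for a part in mouse mesoderm development. Its level was -2.49 and -2.66 in clone 2, -1.95 and -1.65 in clone 3, and -3.89 and -3.85 in shControl. Both clones lay above the controls without overlap, by 1.29 in clone 2 (adjusted p = 0.0223) and 2.07 in clone 3 (adjusted p = 0.0259), and the mean difference was 1.68 ± 0.29 (SE, adjusted p = 0.0120), a 3.20-fold higher level. It was 1.60 to 1.75 with any 1 array left out, and the call was lost without clone 3 replicate 2. It was dim, and with normexp background correction its difference was 0.31 and did not pass.

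The other 9 largest rises were 8 pseudogene probes and the long noncoding RNA 2810025M15Rik, and in most of them the controls lay far apart. 5730416F02Rik, a pseudogene on chromosome X, had 1.48 and 0.58 in clone 2, 0.42 and 1.37 in clone 3, and -3.67 and -1.19 in shControl (3.39 ± 0.68 SE, adjusted p = 0.0154). Without shControl replicate 1 its difference was 2.15 and did not pass, and without shControl replicate 2 it was 4.64. Those of 1700073E17Rik and 2810025M15Rik still passed without either shControl array and were lost without either clone 3 array. 1700073E17Rik had 4.72 and 4.85 in clone 2, 4.40 and 4.70 in clone 3, and 1.21 and 3.30 in shControl (2.41 ± 0.54 SE, adjusted p = 0.0186). 2810025M15Rik had -0.83 and -1.02 in clone 2, -0.43 and -0.95 in clone 3, and -4.01 and -2.09 in shControl (2.24 ± 0.53 SE, adjusted p = 0.0199). Gm8096, Gm8709, Gm5779, Gm1943, Gm6548 and 1 probe of Gm5069 had differences of 1.53 to 2.85. In all of these except Gm1943 the lower control was replicate 1.

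Several genes, most of them pseudogenes, had probes that disagreed in sign, and their levels stay uncertain. A near copy may hybridise to the same probe, but the cause of the disagreement was not tested. Gm5069 was the clearest case. Its first probe gave 4.40 and 3.96 in clone 2, 2.64 and 4.12 in clone 3, and -0.16 and 2.03 in shControl, a difference of 2.85 (adjusted p = 0.0191). A second gave 5.91 and 5.70 in clone 2, 6.59 and 6.30 in clone 3, and 8.28 and 7.36 in shControl, a difference of -1.69 (adjusted p = 0.0163) that was -0.64 after quantile normalization (adjusted p = 0.068). The other probe of Gm5069 differed by -0.04 (adjusted p = 0.942). Gm6981 had 5 probes, 2 of them higher, 1 lower and 2 that did not pass. AI854703 had 1 probe with -2.27 (adjusted p = 0.00945) and another with 0.53 (adjusted p = 0.187). Probes also differed in sign for the long noncoding RNAs 1500011B03Rik and Gm10845, and for BC025920, Gm10731, Gm5766, Gm6548, Gm9079 and Thap6.

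Clone 2 gave more calls than clone 3 at the same control arrays. In clone 2, 22 members were higher and 162 lower than in shControl, beside 43.2% of all probes tested (12.4% higher, 30.9% lower). In clone 3, 11 were higher and 20 lower, beside 8.99% (4.78% higher, 4.21% lower). Of the probes detected on all 6 arrays, 7.66% were higher and 34.5% lower in clone 2, and 3.59% and 3.88% in clone 3. The median difference of the members was -0.90 in clone 2 (all probes: -0.72) and -0.56 in clone 3 (all probes: -0.41). Over the probes detected on all 6 arrays the medians were -0.80 and -0.50. These comparisons share their control arrays. The count for clone 2 was 339 without shControl replicate 2, 53 and 54 without clone 2 replicates 1 and 2, and 72 without either clone 3 array. The count for clone 3 was 233 without shControl replicate 2, 15 without shControl replicate 1, and 0 without either clone 3 array (53 and 79 members then had an unadjusted p under 0.05). Among members called in clone 3 were Malat1, Fendrr, 4932412D23Rik, A130077B15Rik, 5730416F02Rik and Snhg18. 4930455D15Rik, a long noncoding RNA on chromosome 18, was lower in clone 3 (-2.20, adjusted p = 0.0485) and differed by -0.80 in clone 2 (adjusted p = 0.246), with clone 2 arrays at -2.44 and -3.99, clone 3 arrays at -4.59 and -4.64, and shControl arrays at -2.05 and -2.79. That clone 3 call was lost with median centring, quantile normalization and no filter on dim probes, and the difference between the clones did not pass (-1.40, adjusted p = 0.353).

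Between the clones themselves, which share a scan date, no member passed. limma gave 0 higher and 0 lower in clone 3 than in clone 2, beside 1.86% of all probes tested and 0.445% of those detected on all 6 arrays, and 22 members had an unadjusted p under 0.05. The members' median difference, clone 3 minus clone 2, was 0.41, against 0.36 over all probes and 0.39 over those detected on all 6 arrays. Both clone 3 arrays lay above both clone 2 arrays for 303 members and below for 41, beside 56.4% and 18.6% of all probes. Over the 19795 probes detected on all 6 arrays, these counts were 12251 and 2912. The largest differences were in pseudogenes. Hmgb1-rs17, named as a sequence related to Hmgb1, had 1.01 and 0.24 in clone 3 and 2.71 and 3.14 in clone 2 (-2.30), and Gm9079 had 1.47 and 0.38 in clone 3 and 3.17 and 3.23 in clone 2 (-2.27). Serpina3h had -2.37 and -2.23 in clone 3 and -3.92 and -3.79 in clone 2 (1.55). Other large ones were Gm6981 (-2.10, 1 probe), 4930413E15Rik (1.20) and 4930524C18Rik (1.15). Tug1 had the values given above, -1.30 ± 0.34 (SE, adjusted p = 0.138). Leaving out either shControl array, which changes the pooled spread and not the clone values, gave 3 members past the threshold: Tug1 (adjusted p = 0.0422), Serpina3h (0.0346) and Hmgb1-rs17 (0.0481). Of these 3, Hmgb1-rs17 also passed with normexp background correction, and over the 8 other settings the adjusted p was 0.0890 or higher for Serpina3h and 0.158 or higher for Tug1.

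**Figure D5:**
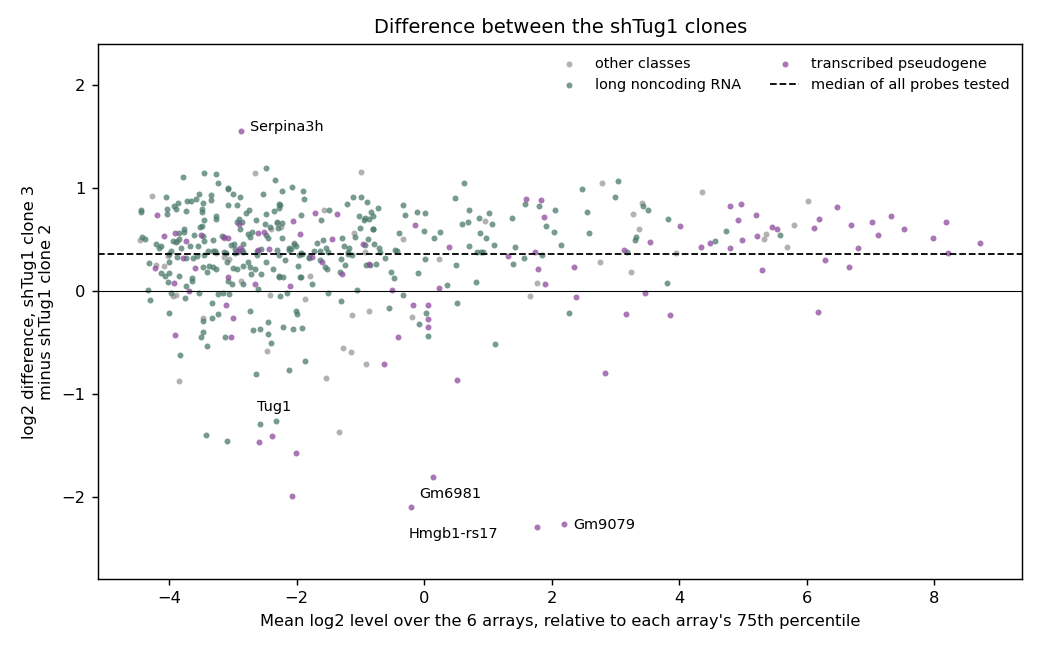
log2 difference between shTug1 clone 3 and shTug1 clone 2 (y axis) against the mean log2 level over the 6 arrays (x axis) for each of the 461 noncoding RNA probes, coloured by class; the dashed line is the median of all probes tested, 0.36. Most members lie near that line, and those furthest below it, such as Hmgb1-rs17 at -2.30, are mostly pseudogenes.

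Protein genes of related pathways showed mixed calls against shControl. Of 13 tested factors of nonsense-mediated decay, the pathway that degrades many spliced noncoding host transcripts, 3 were higher and 1 lower, beside 11.8% and 27.6% of all probes tested: Eif4a3, a helicase of the exon junction complex, differed by 3.08 (adjusted p = 0.012), Upf3b by 2.41 (adjusted p = 0.019) and Smg6, an endonuclease of the pathway, by -1.11 (adjusted p = 0.028). Upf2 was higher too; it differed by 2.50 and was above background on 5 arrays. Of 14 paraspeckle-related proteins, 2 were higher and 2 lower, beside the same 11.8% and 27.6% of all probes tested. Hnrnpk, 1 of the higher ones, was above background on 5 arrays, with shControl at -5.84, the array below background, and -2.10 (3.22, adjusted p = 0.029). The others were Cpsf6 at 1.38 (adjusted p = 0.016), Tardbp at -1.45 (adjusted p = 0.015) and Daxx at -0.93 (adjusted p = 0.039).

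Just outside the rule were 65 noncoding probes detected on 5 of the 6 arrays. The members' mean level ran between -4.46 and 8.72 with a median of -2.02, against -4.65 to -0.51 and a median of -4.01 for these 65. The missing array was clone 2 replicate 1 for 23 of them, clone 2 replicate 2 for 3, clone 3 replicate 1 for 5, clone 3 replicate 2 for 2 and either shControl array for 16 each. Among them were the listed RNAs Ftx, Mir100hg, Rmrp (the RNA of the mitochondrial RNA processing ribonuclease) and Terc (the telomerase RNA).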

How the data were processed

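Groups of the 6 one-colour Agilent arrays (Cy3) follow the titles. The intensity per spot in the deposited scanner files was background-subtracted by Agilent Feature Extraction (version 11.0.1.1, per the file headers). The deposited series table holds log2 values of 19819 probes, normalized by the authors in a way not given in the sources used here, and served as an alternative. The sign changes listed below had nearly the same values with it as after quantile normalization, so it is no separate check on that setting.

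For each array, log2 of the processed signal minus log2 of its 75th percentile was taken, without outlier spots, and a probe's spots were averaged on the log2 scale. A probe was kept when at least 1 group had both arrays well above background (25541 tested, after 14 were lost to outlier marks, no member among them). limma 3.58.1 (R 4.3.3; lmFit and eBayes, 3 group means, residual df 3, prior df 4.607) gave two-sided tests with Benjamini-Hochberg adjustment over all probes tested, at 0.05. The script was tested on simulated data. The number of arrays limits the precision.

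Accessions were matched to symbols, gene types and positions of the RefSeq table (GRCm38.p6), which also gave the printed sequences. The members, gene lists and named genes were chosen with earlier results of these data known. Named were all members of the lists, the 10 largest rises and falls past the threshold without overlap of the groups among members with a symbol, up to 5 of each per clone, the 3 largest differences each way between the clones, and genes whose probes differ in sign. Protein and marker lists were given by counts, with each gene taken by its probe with the highest mean level. Alternatives were median centring, quantile normalization, normexp correction (on median signals, offset 50, since the files used hold no mean signal), 2 other filters, 1 probe per gene, the deposited table, the replicate number as a block, and leaving out each array. Where 1 array of a group remained, it was assumed to vary like the other groups. Replicates 1 and 2 did not pair across groups: the correlations of their deviations were -0.03, 0.12 and -0.09.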

Additional observations from a re-analysis of the deposited data

How the results depend on the processing

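The counts of members past the threshold depended on scaling, background correction and single arrays. Those of all 25541 probes tested did too. For the mean of the clones they went from 10051 to 6807 with quantile normalization. With normexp correction they reached 17088 (2552 higher, 14536 lower). For clone 2 they went from 11040 to 7179 and 17715, and for clone 3 from 2297 to 2128 and 7938. The counts below are of members. For the mean of the clones minus shControl, where the 75th-percentile scaling called 170, quantile normalization gave 106, normexp correction 341 (23 higher, 318 lower), and leaving out 1 array 3 to 314. For clone 2 minus shControl (184), these counts were 121, 357 and 53 to 339. For clone 3 minus shControl (31), normexp gave 142, no filter on dim probes 6, the filter for all 6 arrays 69, the deposited values 57 and leaving out 1 array 0 to 233. For clone 3 minus clone 2 (0), normexp gave 3, all lower in clone 3 (Gm9079, Tubb2a-ps2 and Hmgb1-rs17), and leaving out 1 array 0 to 3. With the replicate number as a block, although the numbers do not pair the cultures, the counts were 167, 186, 37 and 1 (Tubb2a-ps2). The members' median relative to all probes was -0.15 for the mean of the clones, between -0.194 and -0.121 with 1 array left out, and 0.0421 with no filter on dim probes, which adds dim probes to the comparison. Of 38 named probes called for the mean of the clones, 30 were still called after quantile normalization, 34 with the deposited values, 37 with normexp and 33 with no filter. Leaving out an array kept 22 and 38 of them (shControl replicates 1 and 2), 31 and 27 (clone 2) and 15 and 2 (clone 3). No named probe called in that comparison turned its direction under any setting tried.

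The log2 difference of some named probes that had not passed turned its sign. After quantile normalization the values were 1500011B03Rik 0.041, 4930524C18Rik 0.30, Airn 0.17, BC025920 (probe A_66_P122781) 0.033, Gm10845 (probe A_55_P2045278) 0.32, Gm10845 (probe A_55_P2137286) 0.11, Gm5069 0.84, Gm5766 0.53, Gm6548 0.22, Gm9079 0.053, Pvt1 0.22, Rnu12 0.080 and Snhg3 0.11. With the deposited values they were 1500011B03Rik 0.043, 4930524C18Rik 0.31, Airn 0.18, BC025920 (probe A_66_P122781) 0.041, Gm10845 (probe A_55_P2045278) 0.32, Gm10845 (probe A_55_P2137286) 0.11, Gm5069 0.84, Gm5766 0.53, Gm6548 0.22, Gm9079 0.053, Pvt1 0.22, Rnu12 0.080 and Snhg3 0.11. With normexp they were 1500011B03Rik 0.055, AI854703 -0.22, BC025920 (probe A_55_P2004263) -0.45, Gm5069 0.15, Snhg7 -0.059 and Tug1 -0.26, and with median centring 4930524C18Rik 0.021 and Gm5069 0.0067. With 1 array left out, the ranges were 1500011B03Rik -0.31 to 0.14, 4930413E15Rik -0.82 to 0.020, 4930524C18Rik -0.53 to 0.48, Airn -0.21 to 0.074, BC025920 (probe A_55_P2004263) -0.74 to 0.94, BC025920 (probe A_66_P122781) -0.21 to 0.045, Gm10845 (probe A_55_P2137286) -1.18 to 0.091, Gm5069 -0.59 to 0.52, Gm6981 -0.56 to 0.57, Gm9079 -1.29 to 0.51, Hmgb1-rs17 -0.75 to 0.81, Pvt1 -0.67 to 0.012, Rnu12 -1.23 to 0.19, Snhg7 -0.33 to 0.45, Thap6 -0.37 to 0.54 and Tug1 -0.029 to 0.36. The cause was not tested. Probes near background set a limit on what their differences can show.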
